A study of Mus musculus with 4 samples.

Results

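The tubulin isotypes described here are 10 genes: the alpha-tubulin genes Tuba1a, Tuba1b and Tuba1c, the beta-tubulin genes Tubb2a, Tubb2b, Tubb3, Tubb4b, Tubb5 and Tubb6, and the gamma-tubulin gene Tubg1. They were taken by symbol from a table of 56350 genes, because tubulin is the substrate of the deacetylase HDAC6, and all 10 were among the 14455 genes with enough counts to be tested. RNA came from EO771 cells, a mammary carcinoma line from C57BL/6 mice grown in culture. There were 2 libraries labelled BML-210, from cells given this inhibitor of histone deacetylases (HDACs) at 1.0 µM for 48 h, and 2 labelled untreated, which are titled WT and of which the labels also say that they received vehicle. The library codes carry V for the libraries labelled BML-210 and D for those labelled untreated, so every direction below rests on the group labels. Nothing in the labels says that the replicates were separate cultures, so p-values measure the spread between these libraries, which may be technical. With 2 libraries a group, an exact permutation test of a single value cannot go below p = 0.33.

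Microtubules are built from heterodimers of alpha- and beta-tubulin, while gamma-tubulin sits in ring complexes that start new microtubules. Mammals carry several genes for each class, and the proteins differ mainly in their acidic C-terminal tails, which protrude from the microtubule and receive tyrosine, glutamate and glycine modifications. Alpha-tubulin is also acetylated on a lysine inside the microtubule, a mark that is added by ATAT1 and removed by HDAC6 and SIRT2. Cells hold down tubulin mRNA when free tubulin is abundant, by a decay pathway that recognises the nascent chain.

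The coding sequences are shown first, because several of these genes share long identical stretches. All come from the GENCODE M21 transcripts (GRCm38, the assembly of mm10), 5′ to 3′ on the coding strand. Capitals in the first 3 sequences mark codon 40, the lysine codon that carries the acetyl mark, at chr15:98951560-98951589 (minus strand), chr15:98933064-98933093 (minus strand) and chr15:99034196-99034225 (plus strand).
Tuba1a: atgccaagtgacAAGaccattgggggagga
Tuba1b: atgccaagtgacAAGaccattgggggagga
Tuba1c: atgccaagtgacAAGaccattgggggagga
The stretch around the acetylated lysine was identical in the 3 alpha-tubulin genes. Tuba1a and Tuba1b had 98.3% identical bases over the 1353 bases of coding sequence. In the beta-tubulin genes the end of the coding sequence, which encodes the C-terminal tail, is shown as the last 60 bases before the stop codon. It lies at chr13:34074471-34074530 (minus strand) for Tubb2a, chr13:34127474-34127533 (minus strand) for Tubb2b, chr8:123421620-123421679 (plus strand) for Tubb3, chr2:25222311-25222370 (minus strand) for Tubb4b and chr17:35834985-35835044 (minus strand) for Tubb5. Capitals mark the bases at which Tubb2a and Tubb2b differ.
Tubb2a: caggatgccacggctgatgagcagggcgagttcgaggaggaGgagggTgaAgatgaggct
Tubb2b: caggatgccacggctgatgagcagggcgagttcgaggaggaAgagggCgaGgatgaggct
Tubb3: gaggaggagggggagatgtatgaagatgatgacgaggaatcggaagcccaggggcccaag
Tubb4b: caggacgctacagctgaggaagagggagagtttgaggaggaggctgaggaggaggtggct
Tubb5: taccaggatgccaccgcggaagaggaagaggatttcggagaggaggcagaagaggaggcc
Tubb2a and Tubb2b differed at 3 of these 60 bases and were 96.5% identical over 1335 coding bases. The 3 differences do not change the encoded amino acids, so this stretch encodes the same tail in both genes.

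Sequence sharing was measured as the percentage of 100-base windows of a gene's transcript that also occur, base for base, in a transcript of another gene. It was 73.0% for Tuba1b, 65.8% for Tuba1a, 53.4% for Tuba1c, 36.9% for Tubb2a, 30.6% for Tubb4b, 27.7% for Tubb2b and 4.11% for Tubg1. No window was shared for Tubb3, Tubb5 or Tubb6. An annotated transcript, Gm49450, also covers 426 exonic bases of Tuba1b and 473 of Tuba1a on the same strand, and it had 0 counts over all 4 libraries. How the authors treated reads that match several places or several genes is not stated in the labels. The counts of Tuba1a, Tuba1b, Tuba1c, Tubb2a, Tubb2b and Tubb4b one by one are therefore uncertain. Exons also overlap those of a gene on the other strand for Tuba1b (Gm41396) and Tubb4b (Fam166a). Among the other listed genes named in the results, the same holds for Atat1, Ccna2, Cct6a, Cct7, Cct8, Haus1, Haus2, Haus8, Katna1, Kif18a, Map1a, Mical3, Sirt2, Tbcb, Tbcd, Tpgs2, Tuba4a, Tube1 and Tubgcp2. Exons of Cct6a, L1cam, Tacc1 and Top2a overlap a gene on the same strand. The labels do not state whether counting used strand, so reads of such partners may not be told apart, and these values carry that uncertainty.

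Of the 10 tubulin genes, 4 rose and 4 fell in the libraries labelled BML-210, and 2 did not pass the test. Tuba1b rose 1.42-fold and Tubb3 1.32-fold, Tubb4b and Tubb5 rose by smaller amounts, Tubb2b fell 1.80-fold, Tuba1a 1.68-fold and Tubb2a 1.38-fold, and Tubb6 fell by a smaller amount. Calls are at an adjusted p below 0.05 in edgeR's quasi-likelihood test, adjusted by Benjamini-Hochberg over all 14455 genes. Of all tested genes 46.4% were called, 22.9% higher and 23.5% lower, so changes of this kind were common in these libraries. The median log2 fold change of the 10 genes was -0.028, against -0.0025 over all tested genes. Levels below are CPM, that is counts scaled to library size with TMM factors, and fold changes are those of BML-210 over untreated. The groups did not overlap for any of the 10 genes, with 5 genes higher and 5 lower. Over all tested genes 71.3% did not overlap, 35.2% with BML-210 higher and 36.1% with BML-210 lower.

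**Figure D1:**
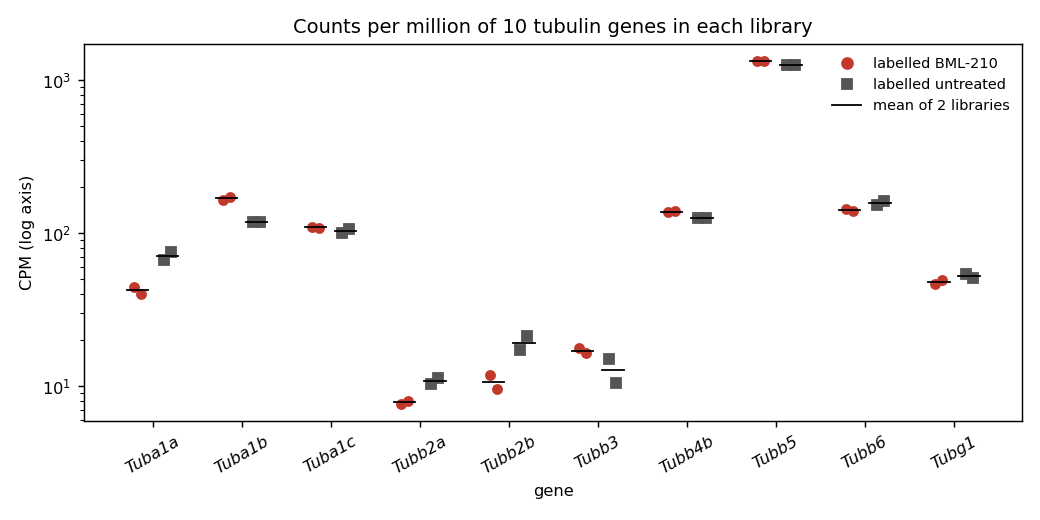
CPM (log axis) of the 10 tubulin genes in each library, with circles for the 2 libraries labelled BML-210, squares for the 2 labelled untreated and a line at each mean. Tubb5 lies above 1200 CPM in every library, and the circles lie below the squares for Tuba1a, Tubb2a, Tubb2b, Tubb6 and Tubg1.

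The alpha-tubulin genes lie close together on chromosome 15 (mm10). Tuba1b (ENSMUSG00000023004.8, 98931425 to 98934565, minus strand), the main alpha-tubulin gene of many dividing cells, had 165 and 173 CPM in the libraries labelled BML-210, against 119 and 119 CPM in those labelled untreated. Both libraries labelled BML-210 were thus higher, and the means were 169 ± 5.21 and 119 ± 0.539 CPM (SD, n = 2 each). The log2 fold change was 0.51 ± 0.042 (SE; edgeR, BH-adjusted p = 9.17e-16). Tuba1a (ENSMUSG00000072235.6, 98949837 to 98953703, minus strand), best known from developing neurons, had 44.7 and 39.96 CPM in the libraries labelled BML-210, against 67.1 and 75.2 CPM in those labelled untreated. Both libraries labelled BML-210 were lower, with a log2 fold change of -0.75 ± 0.065 (SE; edgeR, BH-adjusted p = 4.79e-15). Tuba1c (ENSMUSG00000043091.9, 99029891 to 99038110, plus strand), a broadly expressed alpha-tubulin gene, had 111 and 108 CPM in the libraries labelled BML-210, against 100.4 and 107 CPM in those labelled untreated. These values lay apart by little, and the log2 fold change of 0.082 ± 0.047 (SE) did not pass the test (edgeR, adjusted p = 0.154).

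The balance between Tuba1b and Tuba1a also differed between the groups. Per kilobase of exonic length, the level of Tuba1b over that of Tuba1a was 3.56 and 4.16 in the libraries labelled BML-210, against 1.70 and 1.53 in those labelled untreated. The groups did not overlap, and an exact permutation test of this ratio could not go below p = 0.33. With Tuba1a, Tuba1b and Tuba1c summed, the family had 321.0 ± 0.118 CPM in the libraries labelled BML-210 and 294 ± 10.9 CPM in those labelled untreated (SD, n = 2 each). The sum rose with a log2 fold change of 0.13 ± 0.033 (SE; edgeR, BH-adjusted p = 0.000965), less than that of Tuba1b alone.

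Among the beta-tubulin genes, Tubb5 (ENSMUSG00000001525.10, chromosome 17, 35833921 to 35838306, minus strand), the widely expressed isotype of proliferating cells, was by far the most abundant. It had 1336 and 1337 CPM in the libraries labelled BML-210, against 1266 and 1264 CPM in those labelled untreated. The change was small, with a log2 fold change of 0.080 ± 0.027 (SE; edgeR, BH-adjusted p = 0.0108), but the replicates of each group lay closer together than the groups. The call was lost when either library labelled BML-210 was left out (adjusted p = 0.134 for replicate 1 and 0.128 for replicate 2) and under upper-quartile scaling (0.12); across 16 alternatives the adjusted p ran from 0.00035 to 1. Values of 1 in such ranges come from glmTreat, which asks for a change beyond 1.2-fold.

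Tubb4b (ENSMUSG00000036752.4, chromosome 2, 25222160 to 25224702, minus strand), another broadly expressed isotype, had 137 and 141 CPM in the libraries labelled BML-210, against 127 and 125 CPM in those labelled untreated. Its log2 fold change was 0.14 ± 0.043 (SE; edgeR, BH-adjusted p = 0.00546), and the call ended without BML-210 replicate 2 (0.0892) and with DESeq2 (0.078); across 16 alternatives the adjusted p ran from 0.00212 to 1. Tubb6 (ENSMUSG00000001473.7, chromosome 18, 67390717 to 67402749, plus strand), a divergent isotype found in many non-neuronal tissues, moved the other way. It had 145 and 139 CPM in the libraries labelled BML-210, against 153 and 162 CPM in those labelled untreated. Its log2 fold change was -0.15 ± 0.042 (SE; edgeR, BH-adjusted p = 0.00316), and the call ended without untreated replicate 2 (0.0679), without BML-210 replicate 2 (0.0825) and with DESeq2 (0.0724); across 16 alternatives the adjusted p ran from 0.000409 to 1.

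The neighbouring genes Tubb2a and Tubb2b on chromosome 13 were both low and both fell. These isotypes are most abundant in the nervous system. Tubb2b (ENSMUSG00000045136.6, 34126748 to 34130466, minus strand) had 11.8 and 9.56 CPM in the libraries labelled BML-210, against 17.3 and 21.3 CPM in those labelled untreated. It had the largest log2 fold change of the 10 genes in size, -0.85 ± 0.13 (SE; edgeR, BH-adjusted p = 8.45e-08). Tubb2a (ENSMUSG00000058672.7, 34074274 to 34078007, minus strand) had 7.65 and 8.06 CPM in the libraries labelled BML-210, against 10.4 and 11.4 CPM in those labelled untreated. Its log2 fold change was -0.47 ± 0.15 (SE; edgeR, BH-adjusted p = 0.00798), and its call ended without untreated replicate 2 (0.055), without BML-210 replicate 1 (0.0527) and with DESeq2 (0.105); across 15 alternatives the adjusted p ran from 0.00446 to 0.114. With both genes summed, the level was 18.5 ± 1.29 CPM in the libraries labelled BML-210 and 30.2 ± 3.45 CPM in those labelled untreated (SD, n = 2 each), a log2 fold change of -0.70 ± 0.097 (SE; edgeR, BH-adjusted p = 1.39e-08).

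Tubb3 (ENSMUSG00000062380.4, chromosome 8, 123411424 to 123422015, plus strand), the isotype used as a neuronal marker and also expressed in many tumours, went against the other low isotypes. It had 17.7 and 16.4 CPM in the libraries labelled BML-210, against 15.03 and 10.6 CPM in those labelled untreated. The spread lay mostly between the libraries labelled untreated, with 247 counts in the first and 145 in the second. The log2 fold change was 0.40 ± 0.13 (SE; edgeR, BH-adjusted p = 0.00762). It was 0.18 without untreated replicate 2 (adjusted p = 0.315) and 0.69 without untreated replicate 1 (adjusted p = 5e-05), and the call also ended without BML-210 replicate 1 (0.0551) and with DESeq2 (0.102); across 16 alternatives the adjusted p ran from 5e-05 to 0.315. Of 12 neuronal markers, 10 stayed under 1 CPM in every library. The summed level of the 12 was 185 to 195 CPM in the libraries labelled BML-210 and 364 to 365 CPM in those labelled untreated, nearly all of it from the adhesion gene L1cam. L1cam fell to 187 CPM in the libraries labelled BML-210, against 362 CPM in those labelled untreated.

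The gamma-tubulin gene Tubg1 (ENSMUSG00000035198.9, chromosome 11, 101119938 to 101126419, plus strand) had 46.4 and 49.5 CPM in the libraries labelled BML-210, against 54.0 and 51.4 CPM in those labelled untreated. The log2 fold change of -0.14 ± 0.064 (SE) did not pass the test (edgeR, adjusted p = 0.0768), except with upper-quartile scaling (adjusted p = 0.0296; across 16 alternatives the adjusted p ran from 0.0296 to 1). The fold changes of all tested tubulin genes are plotted together.

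**Figure D2:**
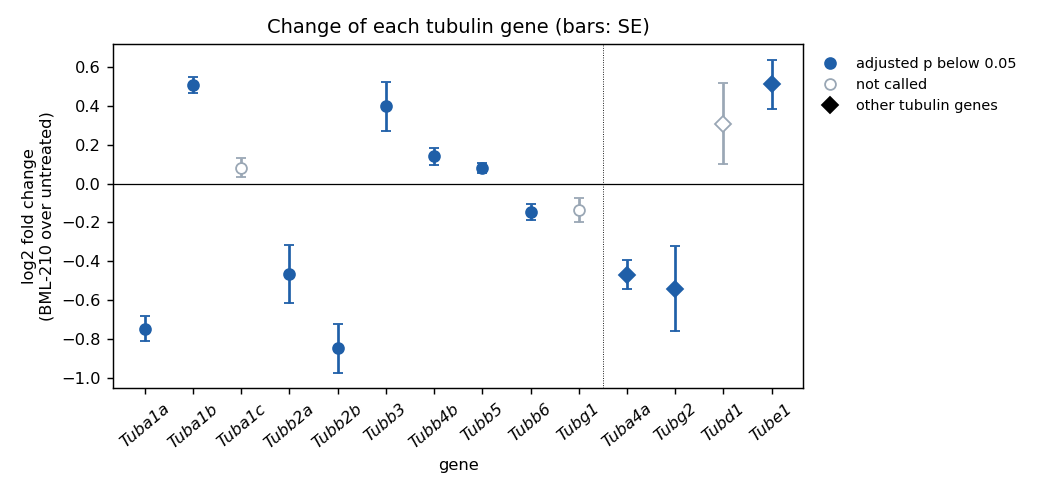
Log2 fold change of BML-210 over untreated for the 10 tubulin isotypes (circles) and 4 further tubulin genes (diamonds), with bars for the SE and filled symbols for an adjusted p below 0.05. Tuba1b and Tuba1a lie on opposite sides of 0, at 0.51 and -0.75, and Tubb5 lies close to 0.

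**Figure D3:**
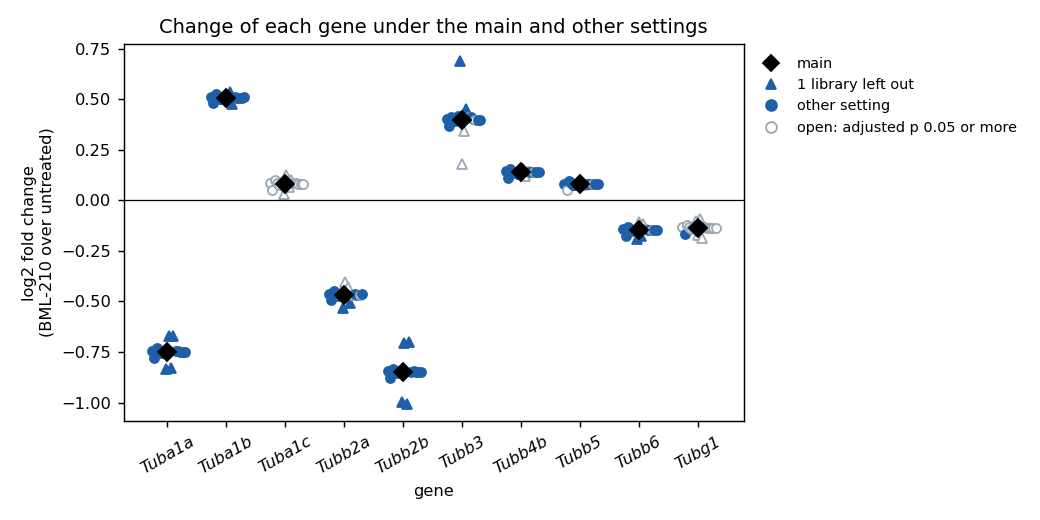
Log2 fold change of each tubulin gene as reported (diamonds), with each library left out in turn (triangles) and under the other settings (circles), where open symbols have an adjusted p of 0.05 or more. Tuba1a, Tuba1b and Tubb2b were called in every fit shown, and Tubb3 spreads most, from 0.18 to 0.69.

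Of 10 further genes of the superfamily, 4 were abundant enough to be tested. The alpha-tubulin gene Tuba4a had 33.0 and 37.8 CPM in the libraries labelled BML-210, against 46.7 and 51.7 CPM in those labelled untreated, and fell by 0.47 on the log2 scale (by edgeR, with adjusted p = 2.14e-07). The second gamma-tubulin gene Tubg2 (-0.54) also fell. These 2 falls became 1 with DESeq2, without a filter on low counts, and when untreated replicate 1, untreated replicate 2 or BML-210 replicate 1 was left out. The epsilon-tubulin gene Tube1 (0.51), of the centriole, rose, and the delta-tubulin gene Tubd1 (0.31) did not pass. The 6 untested genes, among them the platelet isotype Tubb1 and the brain isotype Tubb4a, had at most 4 counts in any library.

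Levels of different genes can be compared only per length, here as CPM per kilobase of exonic length. In the libraries labelled BML-210 the mean levels per kilobase were 402 for Tubb5, 90.2 for Tuba1b, 66.5 for Tubb4b, 58.3 for Tubb6, 47.9 for Tuba1c, 23.5 for Tuba1a, 21.2 for Tubg1, 9.13 for Tubb3, 4.88 for Tubb2a and 4.66 for Tubb2b. Of the neighbours in that order, Tubb2a and Tubb2b overlapped between libraries. In the libraries labelled untreated the means were 380 for Tubb5, 64.5 for Tubb6, 63.5 for Tuba1b, 60.3 for Tubb4b, 45.3 for Tuba1c, 39.5 for Tuba1a, 23.2 for Tubg1, 8.42 for Tubb2b, 6.85 for Tubb3 and 6.76 for Tubb2a. There Tubb6 and Tuba1b overlapped between libraries, as did Tubb2b with Tubb3 and Tubb3 with Tubb2a. Where the length was replaced by the number of windows found in no other gene, an alternative added after seeing the data, Tubb5 was first and Tuba1b second in both groups, but the order below them changed. Such a length assumes that no read from a shared window was counted, which the labels do not settle. The windows were also counted on 1 transcript per gene, whereas exonic length covers all annotated exons. Genes with no shared window thus shortened too, Tubb6 from 2437 to 1659 and Tubb5 from 3327 to 2550. The part of the choice of transcript in the new order was not tested. In the libraries labelled BML-210 Tuba1c moved to place 4, from 5 by exonic length, and Tubb6 to 5 from 4. In those labelled untreated Tuba1a moved to place 3 from 6, Tuba1b to 2 from 3 and Tubb6 to 6 from 2. Tubb2a and Tubb3 also changed places there. However, Tuba1a, Tubb4b and Tuba1c, at places 3, 4 and 5, overlapped between the libraries labelled untreated, as did Tubb2b and Tubb2a. Their order is therefore not settled. Tuba1b then stood at 381 in the libraries labelled BML-210 and 268 in those labelled untreated, against 524 and 496 for Tubb5. The distance between these genes thus depends on the length used, whereas a fold change of 1 gene between libraries does not use its length.

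Tuba1b made up 54.7% and 57.0% of the summed alpha-tubulin level per kilobase in the libraries labelled BML-210, against 43.8% and 41.8% in those labelled untreated. Tuba1a made up 15.3% and 13.7% in the libraries labelled BML-210, against 25.8% and 27.4% in those labelled untreated. The beta-tubulin makeup differed less: Tubb5 gave 73.6% and 73.8% in the libraries labelled BML-210, against 72.3% and 71.9% in those labelled untreated. The summed level per kilobase was 161 and 162 for alpha-tubulin in the libraries labelled BML-210, against 144 and 152 in those labelled untreated. For beta-tubulin it was 546 and 544 in the libraries labelled BML-210, against 526 and 528 in those labelled untreated. In both classes the libraries labelled BML-210 had the higher sums. With the unshared windows as length, Tuba1b made up 64.7% and 66.9% of alpha-tubulin in the libraries labelled BML-210, against 53.8% and 51.7% in those labelled untreated. Tubb5 then made up 68.1% and 68.3% of beta-tubulin in the libraries labelled BML-210, against 67.0% and 66.5% in those labelled untreated. The alpha-tubulin sum was then 576 and 581 in the libraries labelled BML-210, against 497 and 520 in those labelled untreated, so the directions were those found with exonic length.

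**Figure D4:**
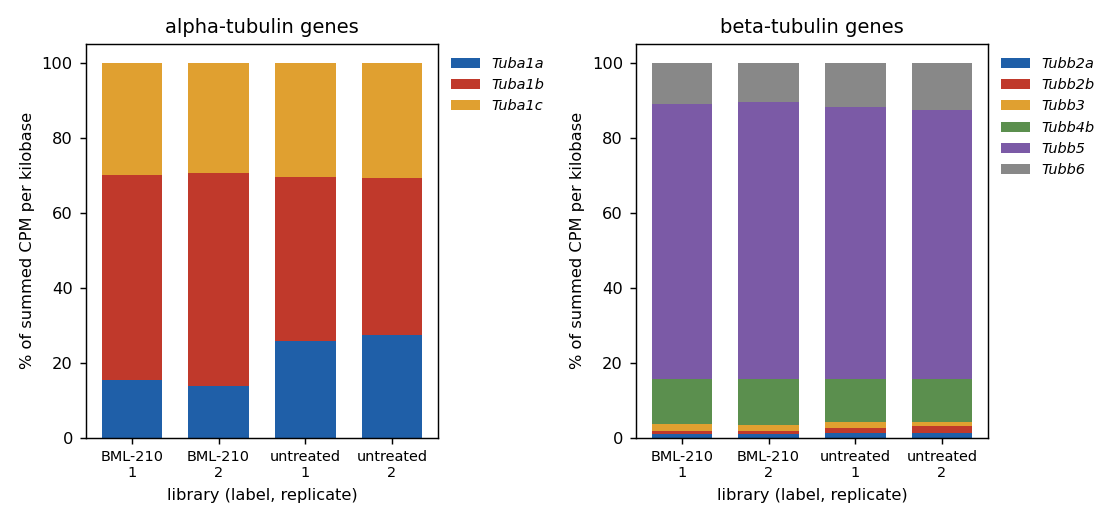
Share of each gene in the summed CPM per kilobase of the alpha-tubulin genes (left) and the beta-tubulin genes (right), 1 bar per library. The Tuba1b share is 54.7% and 57.0% in the libraries labelled BML-210 and 43.8% and 41.8% in those labelled untreated, while Tubb5 takes over 70% of beta-tubulin in all 4 on this scale, which uses exonic length.

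Among 4223 other genes with a mean of at least 50 CPM, those whose profile over the 4 libraries came nearest to that of Tubb5 were Clint1, Fosl2 and Hdac4. Their centred log2 CPM differed from that of Tubb5 by a root mean square of 0.00334, 0.00459 and 0.00509. With 4 libraries such a likeness is a description only.

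Of 3 tested genes for enzymes that set the acetyl mark of alpha-tubulin, the 2 deacetylase genes fell. Of all tested genes 23.5% were called lower and 22.9% higher. Hdac6, the tubulin deacetylase, had 12.3 and 11.3 CPM in the libraries labelled BML-210, against 16.9 and 18.6 CPM in those labelled untreated, and fell by 0.59 on the log2 scale (by edgeR, with adjusted p = 5.16e-05). Sirt2, the other deacetylase, had 83.9 and 77.9 CPM in the libraries labelled BML-210, against 101 and 100.3 CPM in those labelled untreated, and fell by 0.32 (edgeR, adjusted p = 3.53e-07). Atat1, the acetyltransferase, had 4.54 and 6.35 CPM in the libraries labelled BML-210, against 5.36 and 5.61 CPM in those labelled untreated. Its groups overlapped (log2 fold change -0.0021 ± 0.20, SE; edgeR, adjusted p = 0.995). Acetylation itself was not measured.

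Removal of the C-terminal tyrosine rests largely on the vasohibins with their cofactor SVBP. Vash2 had 64.6 and 70.0 CPM in the libraries labelled BML-210, against 36.2 and 34.9 CPM in those labelled untreated, and rose by 0.92 on the log2 scale (by edgeR, with adjusted p = 1.75e-18). The cofactor gene Svbp was low and fell by 0.80 (edgeR, adjusted p = 0.0106). It averaged 2.13 CPM in the libraries labelled BML-210, against 3.76 CPM in those labelled untreated, and its call ended without untreated replicate 2 and with DESeq2. The tyrosine ligase gene Ttl (-0.0053) did not pass. Of 13 tested enzymes of glutamylation and glycylation, 1 rose and 4 fell, while the median log2 fold change was 0.033. Over all tested genes 46.4% were called, 22.9% higher and 23.5% lower, and the counts of this list are given as a description only. The glutamylase gene Ttll4 (0.25) rose and Ttll1 (-0.34), Ttll7 (-0.26) and Ttll12 (-0.36) fell.

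Newly made tubulin passes through prefoldin, the chaperonin CCT and the cofactors TBCA to TBCE. Of 14 tested cofactor and prefoldin genes, 3 fell and 0 rose in edgeR, against 23.5% lower and 22.9% higher over all tested genes. Those that fell were Tbcb (-0.44), Tbcd (-0.20) and Pfdn1 (-0.45), and the median log2 fold change of the 14 was -0.11, against -0.0025 over all tested genes. At an unadjusted p below 0.05 the rises were also 0, as with DESeq2. Of the 8 chaperonin genes 2 rose, Cct8 (0.18) and Cct6a (0.18), and 3 fell, among them Cct7 (-0.17) and Cct2 (-0.10), where 46.4% of all tested genes were called. Of the 2 factors of tubulin mRNA decay, Ttc5, which binds the nascent tubulin chain, fell by 0.45 (edgeR, adjusted p = 0.000259), and Scaper (-0.035) did not pass.

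Genes that start and branch microtubules were mostly higher. Of 17 tested genes of the gamma-tubulin ring and of augmin, which branches microtubules within the spindle, 13 rose and 1 fell, against a background of 22.9% and 23.5%. The median log2 fold change was 0.32. The augmin genes Haus6 (0.54) and Haus2 (0.46), the ring subunit gene Tubgcp2 (0.41) and the ring adaptor gene Mzt1 (0.34) rose, and the augmin gene Haus8 (-0.55) fell except with DESeq2, while Tubg1 itself did not pass. Mitosis genes moved with this list: 19 of 19 tested rose, and their median change was 0.61 on the log2 scale. Their smallest adjusted p were those of Ccna2 (1.11), Top2a (0.71), Tpx2 (0.67) and Mad2l1 (0.86). The part of the mitosis genes in the tubulin results was not tested. Exons of 11 of these 17 genes, and of Tuba1a, Tuba1b and Tubb4b among the isotypes, overlap an exon of another gene. Haus1, listed at 0, has an additional row on a scaffold outside the chromosomes. Of 616 symbols with such a copy 597 had 10 or fewer counts in all on the chromosome. That was 96.9% of them, against 66.8% of the other rows on chromosomes. Kif11 of the mitosis list and Katna1 of the destabilising and severing list also have such a copy and were too low to be tested.

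Microtubule-associated and end-binding genes went both ways, with 10 of 23 tested higher and 8 lower, against 22.9% and 23.5% of all tested genes. The spindle assembly gene Tpx2 (0.67) and the plus-end gene Clip1 (0.62) rose most clearly, and Tacc1 (-0.63), of the transforming acidic coiled-coil family, and the neuronal microtubule-binding gene Map1a (-1.34) fell. Of 10 tested genes listed as destabilising or cutting microtubules, 5 rose and 0 fell in edgeR. Of all tested genes 46.4% were called, 22.9% higher and 23.5% lower. There were 0 falls also at an unadjusted p below 0.05 and with DESeq2. Those that rose include the depolymerising kinesin gene Kif2c (0.88), the AAA ATPase gene Fignl1 (0.86), the kinesin gene Kif18a (0.38) and the severing enzyme gene Spast (0.23). The last of the 5 was Mical3 (0.14), which was in the list but is not known to destabilise or cut microtubules.

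**Figure D5:**
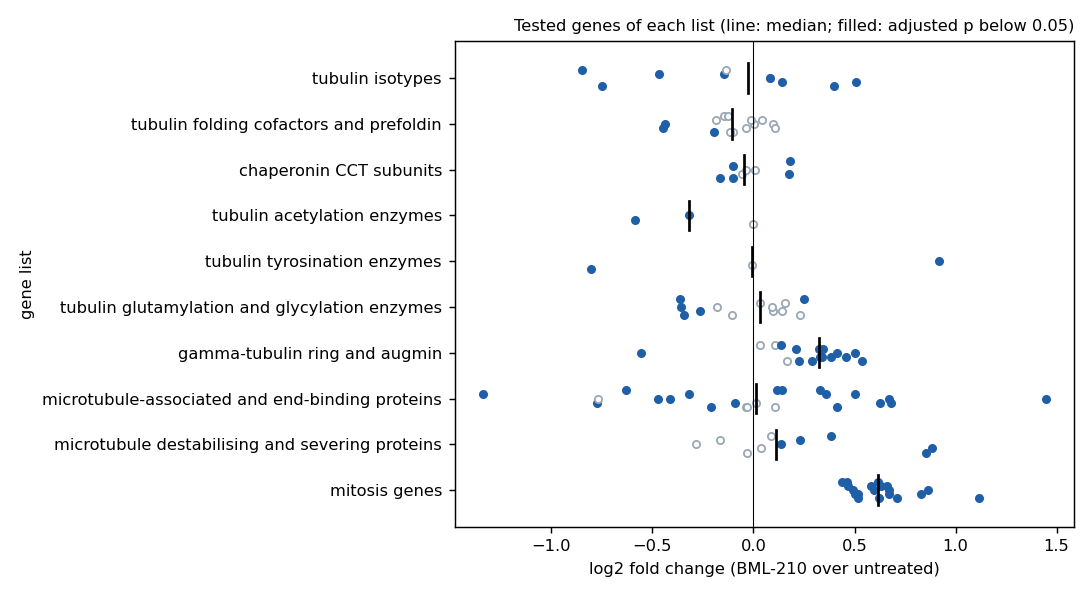
Log2 fold change of BML-210 over untreated for each tested gene of 10 lists, with a line at the median and filled points for an adjusted p below 0.05. The tubulin isotypes spread to both sides of 0, while all 19 mitosis genes and most genes of the gamma-tubulin ring and augmin lie to the right.

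Library totals ran from 13167893 to 16534667 counts. The cells were checked against markers of several cell types. Of 10 mammary epithelial markers 8 stayed under 1 CPM in all libraries, including Epcam and Cdh1, and of 10 macrophage markers 6 did. The epithelial exceptions were Krt8 and Grhl2. Krt8 averaged 30.7 CPM in the libraries labelled BML-210 and 46.4 CPM in those labelled untreated, and Grhl2 8.28 and 23.6 CPM. Summed epithelial markers were at 38.6 to 42.0 CPM and 66.4 to 78.2 CPM in the same order. Summed fibroblast and mesenchymal markers, most of it Vim, were at 1855 to 1884 CPM and 1935 to 1956 CPM. Summed macrophage markers were at 41.9 to 42.2 CPM in the libraries labelled BML-210 and 174 to 177 CPM in those labelled untreated, most of it Cd68, and their part in the tubulin results was not tested. In bulk RNA, fewer cells of a kind and less RNA per cell cannot be told apart.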

How the data were processed

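Per the labels, TRIzol and a miRNeasy kit were used for total RNA, and libraries made with a KAPA RNA HyperPrep kit were sequenced as paired reads. The authors deposited 1 table of raw read counts per gene. STAR 2.5, featureCounts of Subread 1.5.1, edgeR 3.20.8 and the build mm10 are named in the submitters' processing notes. Settings for strand, multi-mapping and overlap, and the annotation, are not given here.

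The analysis of the counts used edgeR 4.0.16 under R 4.3.3: filterByExpr defaults (14455 of 56350 genes), TMM factors, glmQLFit with robust=TRUE and glmQLFTest on the group alone (2 residual degrees of freedom), with Benjamini-Hochberg adjustment over all tested genes. The SE is the log2 fold change over the square root of F, an approximation. A count of 3 equals 0.183 to 0.227 CPM in a library, for counting error only. Exonic lengths in bases are those of the deposited table, and all 10 genes have the same coordinates in GENCODE M21. Counts of replicates spread more widely than sampling noise (chi-square per degree of freedom 1.81 for BML-210 and 2.89 for untreated), and each library was treated as 1 sample. Such spread does not tell separate cultures from technical libraries.

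The steps were tested on simulated data (2 against 2, 14177 genes tested): among genes given a log2 change of 0.5, 64.6% of 96 were found again, and with a change of 1 it was 81.6% of 98. False calls numbered 13 out of 155, a larger share than the threshold of 0.05. Far fewer genes were changed there than were called in these data (46.4% of tested genes). The error rate of the calls here therefore cannot be read from the simulation. The members and the gene lists were chosen with earlier results of these data known. Named are all 10 members; per list up to 4 genes with the smallest adjusted p and up to 2 called against the majority; Hdac6, Sirt2 and Atat1; and the 3 genes nearest to Tubb5. Ttl, Scaper, Tubd1, Tubb1, Tubb4a, Haus1, Kif11, Katna1, Mical3, Tpgs2, Vim, Cdh1 and the untested markers were named outside that rule. Alternatives were other scaling, filters, tests (DESeq2 1.42.0, limma-voom of limma 3.58.1, likelihood ratio, glmTreat), a replicate block, each library left out and near-identical genes summed.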

Additional observations from a re-analysis of the deposited data

How the results depend on the processing

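No tubulin gene changed direction under any of the 15 or 16 alternatives that gave it a value. The calls of Tuba1a, Tuba1b and Tubb2b held in all of theirs, and Tuba1c was called in none (adjusted p 0.0619 to 1). The 3312 genes called higher and 3402 called lower became 2205 and 2130 with DESeq2, and 1385 and 1605 when tested against a fold change of 1.2 by glmTreat. The 4 tubulin genes called higher became 2 with DESeq2 and 1 with glmTreat, and the 4 called lower became 2 in both. With 1 library left out, 2 to 4 were called higher and 2 to 4 lower, and the lone library of a group is then assumed to vary like the others. In the accompanying lists DESeq2 called 1 lower glutamylation or glycylation gene in place of 4 and 1 lower chaperonin gene in place of 3. It called 3 higher destabilising or severing genes in place of 5. With glmTreat, 4 ring and augmin genes were called higher in place of 13. The chaperonin calls, 2 higher and 3 lower, became 0 and 0, and the 3 falls of cofactor and prefoldin genes became 0. Of the glutamylation and glycylation genes 0 were then higher in place of 1, and 1 lower in place of 4. Among the acetylation enzymes 1 was lower in place of 2. For the 10 tubulin genes upper-quartile scaling gave 3 higher and 5 lower. Leaving out the genes over 1% of a library, an alternative added after seeing the data, gave 4 and 4. Same-numbered libraries did not deviate together (correlation 0.00458 over 13342 genes). This value cannot tell whether they were cultured or prepared as pairs. With the replicate number as a block, 3385 genes were called higher and 3462 lower, and 4 and 4 tubulin genes. Counts were lowest for Tubb2a, with 101 to 171 a library, Tubb3, with 145 to 247, and Tubb2b, with 134 to 292; the part of depth in the lost calls of Tubb2a and Tubb3 was not tested. Shared sequence limits the alpha-tubulin genes one by one.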

Other observations

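Of the actin genes, Actb, the main cytoplasmic form here, averaged 7161 CPM in the libraries labelled BML-210 and 6193 CPM in those labelled untreated and rose by 0.21 on the log2 scale (by edgeR, with adjusted p = 2.04e-09). The second cytoplasmic form, Actg1, averaged 352 CPM in the libraries labelled BML-210 and 493 CPM in those labelled untreated and fell by 0.49 (edgeR, adjusted p = 8.69e-21). The smooth muscle form Acta2 rose by 1.07 (edgeR, adjusted p = 2.46e-16), averaging 41.6 CPM in the libraries labelled BML-210 and 19.9 CPM in those labelled untreated. Of 7 tested intermediate filament genes 2 rose and 3 fell, where 22.9% of all tested genes were higher and 23.5% lower, with the B-type lamin genes Lmnb2 (0.44) and Lmnb1 (0.41) higher, and the keratin gene Krt8 (-0.59) and the nestin gene Nes (-0.34) lower. Vimentin (Vim), the most abundant of them, averaged 1662 CPM in the libraries labelled BML-210 and 1707 CPM in those labelled untreated and did not pass (edgeR, adjusted p = 0.244). Among mesenchymal genes, Col3a1 (1.55) and Pdgfrb (0.57) rose and Pdgfra (-0.68) fell. Of the remaining marker genes, Grhl2 (-1.50), Cd68 (-2.38) and Adgre1 (-2.98) fell. Adgre1 was low, averaging 0.18 CPM in the libraries labelled BML-210 and 1.48 CPM in those labelled untreated. Exons of Krt8, Grhl2 and Pdgfra overlap a gene on the other strand and those of Actg1, Col3a1 and Pdgfra a gene on the same strand, so their counts carry the uncertainty given for overlapping genes.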
